A study of Mus musculus with 6 samples.

Results

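The genes described here encode the enzymes and the chaperone that modify collagen inside and outside the cell. They are the prolyl 4-hydroxylase alpha subunits P4ha1, P4ha2 and P4ha3, the lysyl hydroxylases Plod1, Plod2 and Plod3, the lysyl oxidases Lox, Loxl1 and Loxl2, and the collagen chaperone Serpinh1. They were chosen by name, 10 in all, and each was read from a probe set that names that gene only, taking the brightest where there were several. Of the 10 genes, 9 had such a probe set, among 19938 genes of the array, and all 9 passed the filter that left 13292 genes in the test. The probe set of Loxl2 names a second gene and stayed out of the test.

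Expression was compared between CAR cells targeted by Dmp1-Cre and non-targeted CAR cells, on 3 microarrays for each population. CAR (Cxcl12-abundant reticular) cells are marrow stromal cells that make the chemokine Cxcl12 abundantly. All mice were C57BL/6, aged 7 weeks, of the genotype Dmp1-Cre Cxcl12-gfp/+, so both populations came from animals with the Cre transgene and 1 Cxcl12 allele carrying gfp. Marrow was taken from femur and tibia, cells were sorted by flow cytometry, and the cells of 1 mouse gave 1 sample. The labels do not say whether the targeted and non-targeted samples came from the same mice. Dmp1-Cre is driven by sequence of Dmp1, which encodes an acidic bone matrix protein and is typical of osteocytes, so the targeted cells are those with a history or presence of activity of that sequence. The arrays report the mixed RNA of each sorted population, in which fewer cells of a type and less RNA per cell cannot be told apart.

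Collagen chains are modified before and after they leave the cell. In the endoplasmic reticulum, prolyl 4-hydroxylases add hydroxyl groups that keep the collagen helix stable at body temperature, lysyl hydroxylases prepare lysines for sugar addition and cross-linking, and Serpinh1 (also called Hsp47) binds the folding helix. Outside the cell, lysyl oxidases turn lysines and hydroxylysines into aldehydes, from which the cross-links of collagen and elastin form. Osteoblasts lay down large amounts of type I collagen and use all of these steps.

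No member passed the threshold. Over the 13292 genes tested with limma, 0 genes, or 0%, had an adjusted p under 0.05, while 634 genes, or 4.77%, had an unadjusted p under 0.05. Among the 9 members, 1 had an unadjusted p under 0.05, the alpha subunit P4ha1, which was lower in targeted cells. P4ha1 was also the 1 member whose groups did not overlap. Of all genes tested, 9.07% had groups that did not overlap, 5.76% with the targeted arrays below and 3.32% with them above, so the members' share lies near that of the array as a whole. The mean was lower in targeted cells for 6 members and higher for 3, and 51.1% of all genes were lower. The members' median log2 difference, targeted minus non-targeted, was -0.03, beside -0.01 for all genes tested. The members' differences ran from -0.75 for Lox to 0.78 for P4ha3, neither of which passed.

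The prolyl 4-hydroxylase alpha subunits carry the catalytic site, and each pairs with the beta subunit P4hb. P4ha1, the main alpha subunit of most cells, had log2 intensities of 7.80, 8.07 and 7.94 on the targeted arrays, against 8.27, 8.53 and 8.31 on the non-targeted arrays. Each targeted array lay below each non-targeted one, and the gap between the groups was 0.20. It averaged 7.94 ± 0.13 in targeted cells, against 8.37 ± 0.14 in non-targeted cells (mean ± SD, n = 3 each), a log2 difference of -0.43 or 1.35-fold lower. Its standard error (SE) was 0.15 and its 95% interval, which is not corrected for the number of genes, ran from -0.79 to -0.07 (limma, unadjusted p = 0.0243, adjusted p = 0.970). An exact two-sided permutation test over the arrays gave p = 0.1, the smallest that 3 arrays against 3 allow. With each array left out in turn the difference stayed between -0.50 and -0.35.

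P4ha2, an alpha subunit of chondrocytes and osteoblasts among other cells, was at 6.72, 6.39 and 6.29 in targeted cells, against 6.50, 6.55 and 6.34 in non-targeted cells. The groups overlapped throughout. Its log2 difference was 0.01 (SE 0.17), and the 95% interval of -0.39 to 0.40 covers changes up to 1.31-fold lower and 1.32-fold higher.

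P4ha3, the alpha subunit found most recently and usually the scarcest, was at 7.77, 5.81 and 6.27 in targeted cells, against 6.28, 5.42 and 5.80 in non-targeted cells. The first targeted array stood far above the other 5 arrays, and the other two targeted arrays overlapped with the non-targeted range. It averaged 6.62 ± 1.02 in targeted cells, against 5.84 ± 0.43 in non-targeted cells (mean ± SD, n = 3 each), a log2 difference of 0.78 (SE 0.48, limma, adjusted p = 0.9998). The non-targeted mean lies below the brightness limit of the test, a mean log2 intensity of 6.00 over all arrays, so P4ha3 entered the test through the first targeted array. Without that array the difference was 0.20. The beta subunit P4hb, which is shared by all alpha subunits and also acts as a protein disulfide isomerase, differed by 0.04 (SE 0.16).

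The 250 bases before the start of the alpha subunit genes are shown because these subunits do the same job within the enzyme and because P4ha1 and P4ha2 are known targets of the hypoxia-inducible factors. They are from RefSeq (GRCm38.p6), on the plus strand, 5′ to 3′, at chr10:59323046-59323295 for P4ha1, chr11:54100674-54100923 for P4ha2 and chr7:100285270-100285519 for P4ha3. Capitals mark the letters ACGTG and GCGTG, the core of the hypoxia response element, searched on both strands, where a match on each strand counts even if they overlap.
P4ha1: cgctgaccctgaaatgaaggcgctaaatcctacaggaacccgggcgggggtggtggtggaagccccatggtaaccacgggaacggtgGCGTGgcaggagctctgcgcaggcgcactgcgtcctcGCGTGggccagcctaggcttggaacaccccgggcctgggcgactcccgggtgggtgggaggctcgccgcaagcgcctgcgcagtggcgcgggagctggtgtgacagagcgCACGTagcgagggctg
P4ha2: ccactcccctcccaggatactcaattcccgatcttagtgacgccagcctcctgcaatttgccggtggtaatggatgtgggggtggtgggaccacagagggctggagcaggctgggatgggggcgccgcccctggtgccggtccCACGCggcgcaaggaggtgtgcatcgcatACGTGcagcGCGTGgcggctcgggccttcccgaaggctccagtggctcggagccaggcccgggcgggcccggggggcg
P4ha3: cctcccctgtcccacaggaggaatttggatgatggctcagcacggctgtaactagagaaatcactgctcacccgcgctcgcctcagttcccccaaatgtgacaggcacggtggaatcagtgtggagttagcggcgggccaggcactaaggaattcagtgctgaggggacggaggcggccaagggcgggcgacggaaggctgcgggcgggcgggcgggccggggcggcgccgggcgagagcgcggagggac
P4ha1 and P4ha2 each held 3 matches and P4ha3 held 0. Of 32851 promoter windows of the same length, 38.6% held at least 1 match and 6.58% held at least 3. Of the 6 members with an entry in the promoter table, 5 held a match, with 4 in Plod3 and 1 each in Plod1 and Serpinh1. P4ha1 and P4ha2, with equal counts of these letters, had log2 differences of -0.43 and 0.01, neither past the threshold. Whether these letters bear on either difference was not tested.

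**Figure D1:**
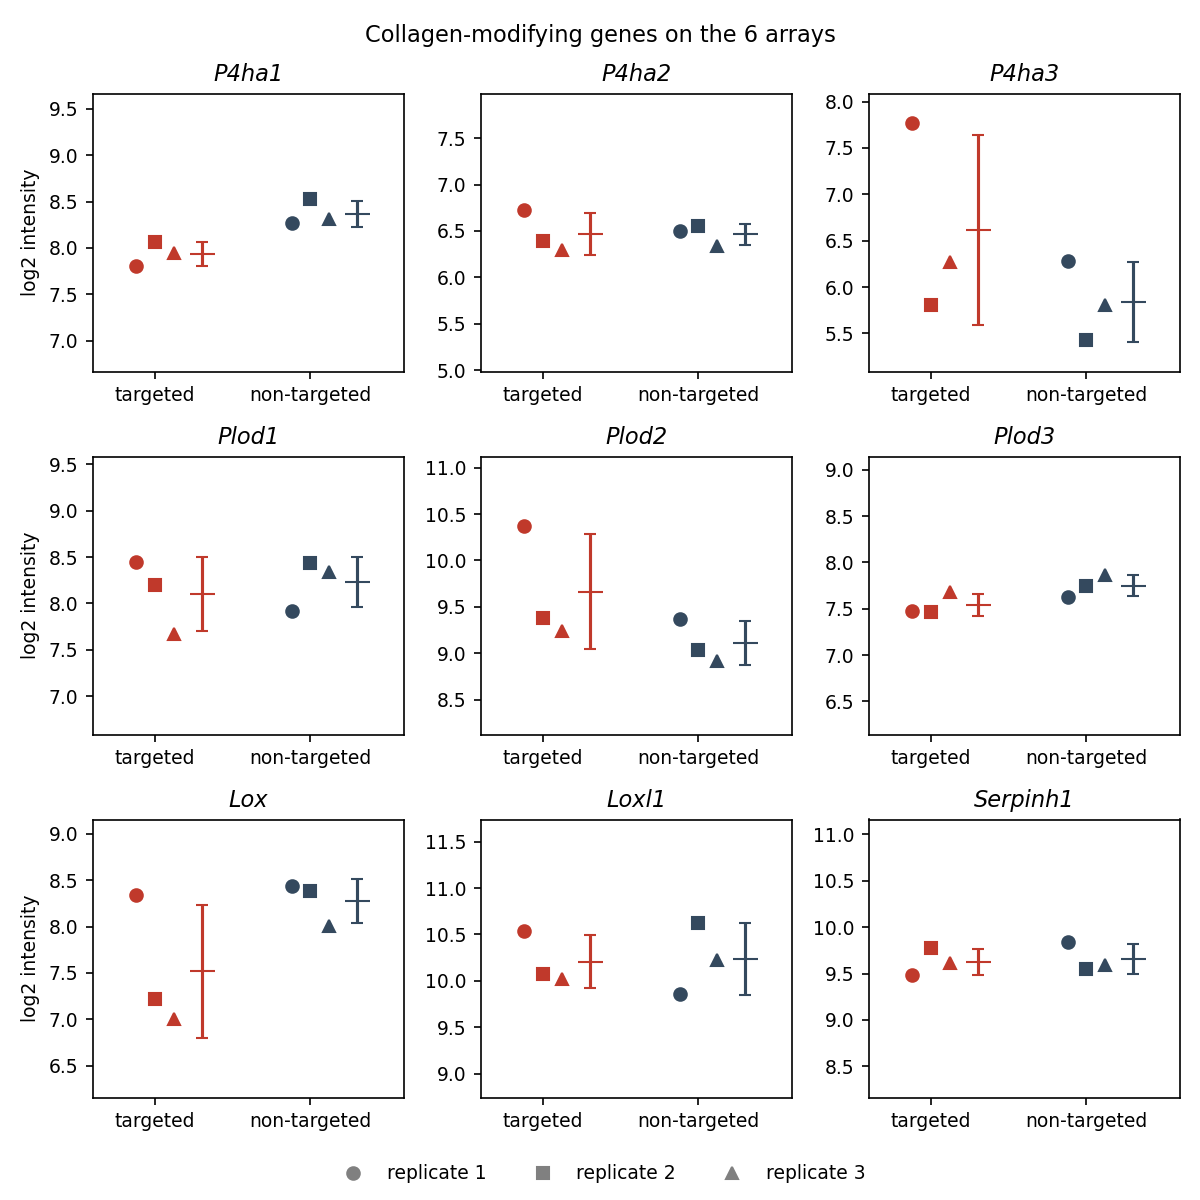
Log2 intensity of the 9 measured collagen-modifying genes, with targeted arrays in red at the left and non-targeted arrays in blue-grey at the right of each panel. Marker shapes give the replicate number, bars show mean ± SD (n = 3), and each panel spans 3 log2 units on its own axis. P4ha1 is the gene whose groups do not overlap, and P4ha3, Plod2 and Lox have the first targeted array apart from the other two.

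None of the lysyl hydroxylases passed the threshold. Plod2, which hydroxylates the telopeptides that form the cross-links typical of bone, was at 10.37, 9.38 and 9.24 in targeted cells, against 9.37, 9.03 and 8.91 in non-targeted cells. The first targeted array was 1.06 above the mean of the other targeted arrays, which lay near the top of the non-targeted range. It averaged 9.66 ± 0.62 in targeted cells, against 9.11 ± 0.24 in non-targeted cells (mean ± SD, n = 3 each), a log2 difference of 0.56 or 1.47-fold higher (SE 0.31, 95% interval -0.15 to 1.27, limma, adjusted p = 0.9998). Without the first targeted array the difference was 0.20.

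Plod1, which hydroxylates lysines within the helix, was at 8.45, 8.20 and 7.67 in targeted cells, against 7.92, 8.43 and 8.34 in non-targeted cells, with full overlap. Its log2 difference of -0.13 (SE 0.24) became 0.09 without targeted replicate 3. Plod3, which besides lysine hydroxylation adds sugars to hydroxylysine, was at 7.48, 7.47 and 7.68 in targeted cells, against 7.63, 7.75 and 7.86 in non-targeted cells. The groups overlapped by 1 pair of arrays only, with targeted replicate 3 just above non-targeted replicate 1. Its log2 difference was -0.21 (SE 0.15, 95% interval -0.55 to 0.14), and it stayed between -0.28 and -0.15 with each array left out in turn.

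Lox had the lowest difference of the members. Lox, the founding lysyl oxidase and the enzyme that starts cross-linking of fibrillar collagen and elastin, was at 8.34, 7.22 and 7.00 on the targeted arrays, against 8.43, 8.38 and 8.001 on the non-targeted arrays. Targeted replicates 2 and 3 lay well below every other array, while targeted replicate 1 lay within the non-targeted range. It averaged 7.52 ± 0.72 in targeted cells, against 8.27 ± 0.24 in non-targeted cells (mean ± SD, n = 3 each), a log2 difference of -0.75 or 1.69-fold lower (SE 0.34, 95% interval -1.55 to 0.04, limma, unadjusted p = 0.0601, adjusted p = 0.9998). Without targeted replicate 1 the difference was -1.16 (limma, adjusted p = 0.334), and over all leave-one-out fits it ran from -1.16 to -0.49.

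Loxl1, which is needed for the renewal of elastic fibres, was at 10.53, 10.07 and 10.02 in targeted cells, against 9.86, 10.63 and 10.22 in non-targeted cells, and the groups overlapped throughout. Its log2 difference was -0.03 (SE 0.24, 95% interval -0.58 to 0.53) and had no settled sign, running from -0.22 to 0.17 in leave-one-out fits. Loxl2, a lysyl oxidase that also cross-links basement membrane collagen, shares its probe set with the predicted gene Gm21451. That probe set was at 8.92, 8.24 and 8.06 in targeted cells, against 8.03, 8.97 and 8.58 in non-targeted cells. The difference of its means was -0.12 with overlapping groups, and how much of the signal is Loxl2 was not tested.

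Serpinh1 varied least over the 6 arrays among the members. It was at 9.49, 9.77 and 9.61 in targeted cells, against 9.84, 9.55 and 9.59 in non-targeted cells, a range of 0.35. It averaged 9.63 ± 0.14 in targeted cells, against 9.66 ± 0.16 in non-targeted cells (mean ± SD, n = 3 each), a log2 difference of -0.03 (SE 0.16). The 95% interval of -0.40 to 0.34 covers changes up to 1.32-fold lower and 1.26-fold higher, so the level of the chaperone was among the more tightly bounded here. The sign of its difference was not settled either, with 0.03 under quantile scaling of the arrays and a range of -0.11 to 0.06 in leave-one-out fits.

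**Figure D2:**
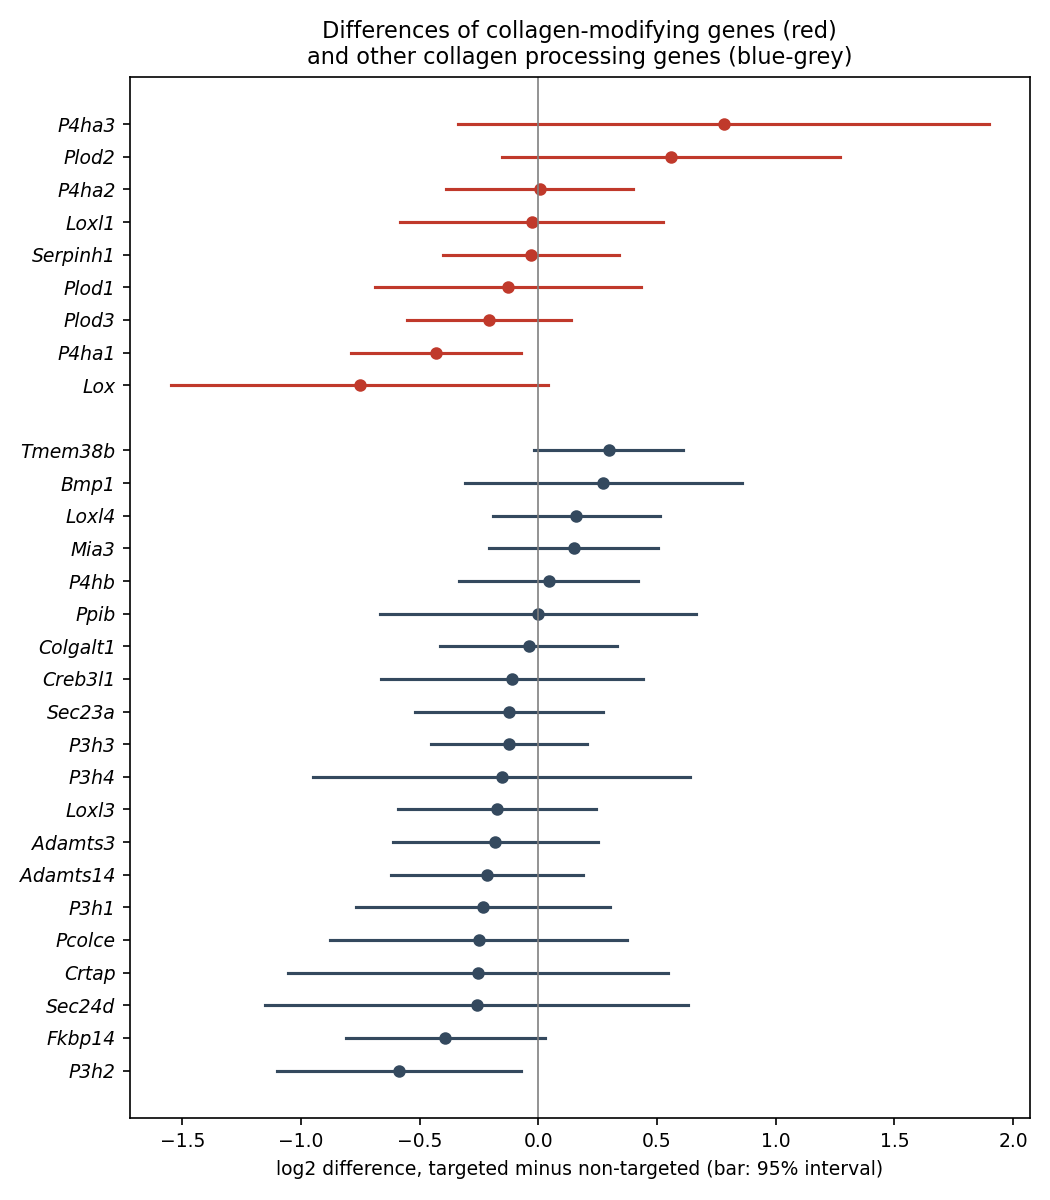
Log2 difference (targeted minus non-targeted, x axis) with its 95% interval for the 9 measured members in red and for 20 other collagen processing genes in blue-grey, each sorted from highest to lowest. The intervals are not corrected for the number of genes, and those of P4ha1 and P3h2 lie below 0.

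Much of the members' variation lay between arrays of 1 group. Targeted replicate 1 was the highest of the 6 arrays for 4 of the 9 members (P4ha2, P4ha3, Plod1 and Plod2), beside 16.8% of all genes tested. It was the lowest for 2 of the 9, P4ha1 and Serpinh1, near the share of 24.2% among all genes tested. Set against the mean of the other targeted arrays, it was 1.73 higher for P4ha3, 1.23 for Lox and 1.06 for Plod2, but 0.20 lower for P4ha1. The means of some marker lists moved on the same array. The 7 tested fibroblast and periosteal markers (of 8 listed) averaged 10.84 there and 9.29 and 9.41 on targeted replicates 2 and 3, against 8.96 to 9.34 in non-targeted cells. Some of these genes were bright in non-targeted CAR cells too, with means of 12.01 for Dcn, 11.85 for Ogn and 9.56 for Fap. Others were dimmer there, with means of 8.61 for Lum, 8.46 for Fn1, 6.83 for S100a4 and 6.34 for Postn. Postn was at 10.44 on targeted replicate 1, against 7.43 and 7.27 on targeted replicates 2 and 3. Whether the list marks another cell type here was not tested. Ogn was lower in targeted cells (log2 difference -0.43), while 6 of the 7 were higher. The 9 tested neutrophil markers (of 10) averaged 6.41 there and 8.35 and 9.17 on targeted replicates 2 and 3, against 8.75 to 9.57 in non-targeted cells. The 8 tested osteoblast markers (of 13) averaged 10.86, 10.27 and 10.40 in targeted cells, against 9.81 to 9.88 in non-targeted cells. Their part in the members' values was not tested.

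**Figure D3:**
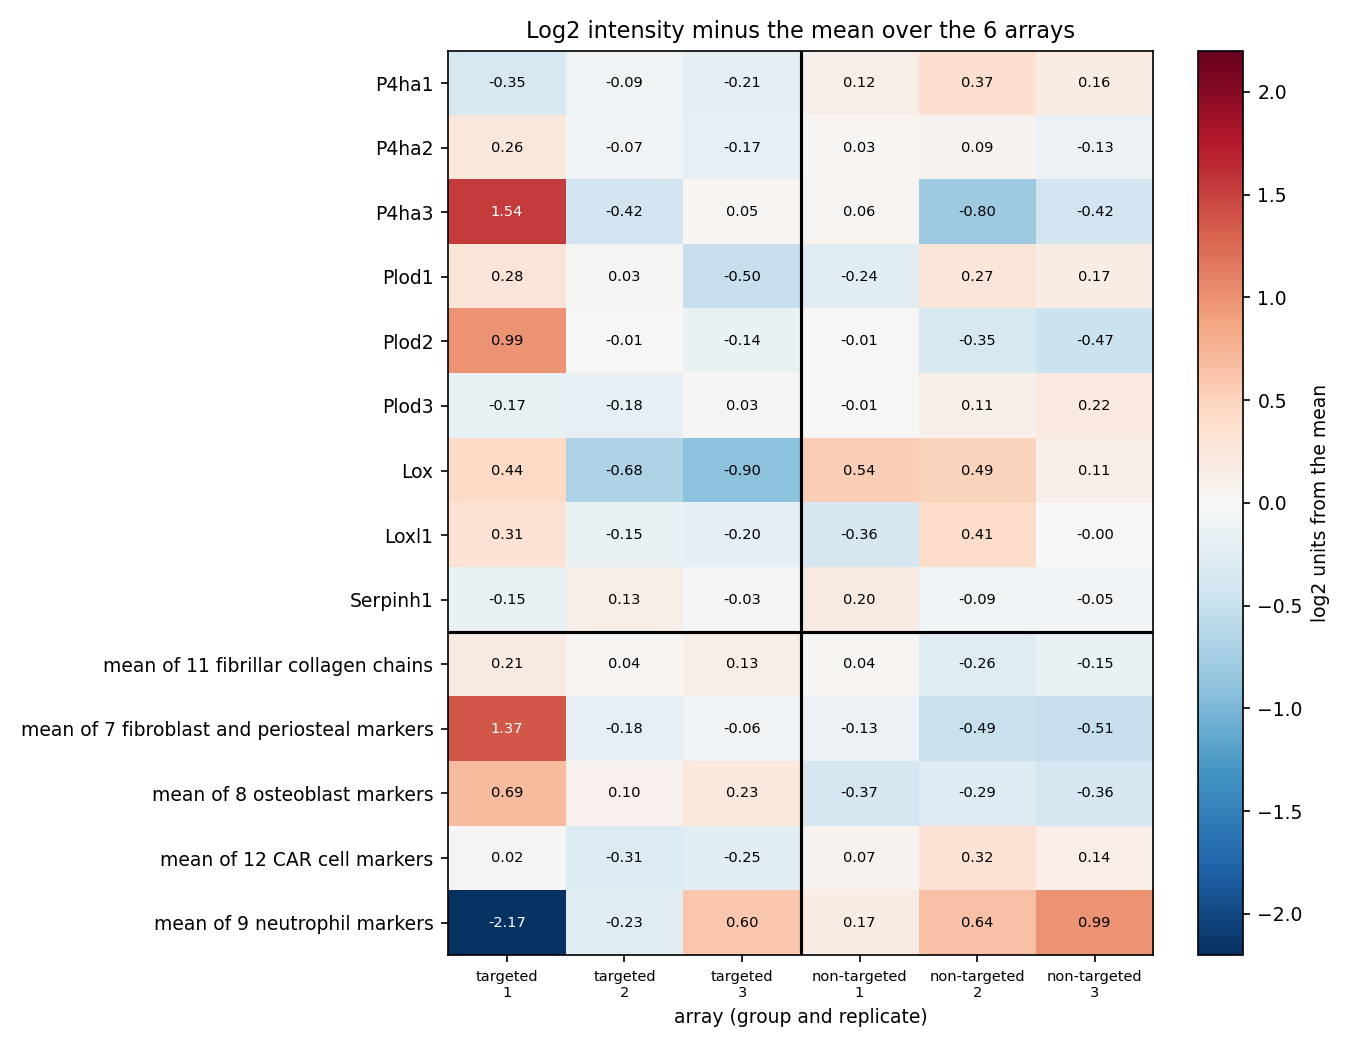
Log2 intensity minus the mean over the 6 arrays, for the 9 members (upper rows) and the means of 5 gene lists (lower rows), with targeted arrays at the left. Red is above and blue below the mean, and targeted replicate 1 is high for P4ha3, Plod2 and the fibroblast list and low for the neutrophil list.

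The sort and the other contents of the samples were checked with marker genes. Dmp1 was at 11.28, 10.03 and 9.89 in targeted cells, against 7.51, 6.93 and 6.91 in non-targeted cells, with no overlap, and was 9.72-fold higher (limma, adjusted p = 0.384). It is 1 of 7 listed osteocyte markers, of which 6 were tested, with a median log2 difference of 0.12. Only Dmp1 had groups that did not overlap, beside 9.07% of all genes tested. Sost differed by 0.04, Phex by -0.22, Fgf23 by 0.09, Pdpn by 0.14 and Fam20c by 0.39. The 12 CAR cell markers averaged 10.91 to 11.24 in targeted cells, against 11.29 to 11.54 in non-targeted cells, the non-targeted arrays lying above. Mean log2 intensities of 4 further lists overlapped between the populations. They were 6.39 to 6.62 in targeted cells against 6.29 to 6.71 in non-targeted cells for 4 of 8 endothelial genes, 6.44 to 6.87 in targeted cells against 6.55 to 6.95 in non-targeted cells for 5 of 8 megakaryocyte genes, 6.24 to 6.98 in targeted cells against 6.47 to 6.77 in non-targeted cells for 6 of 8 macrophage genes, and 7.06 to 7.26 in targeted cells against 7.05 to 7.16 in non-targeted cells for 5 of 7 chondrocyte genes. The remaining genes of these lists were dim or not analysed here. The arrays' median intensities ran from 79.4 to 86.7 in targeted cells, against 80.6 to 87.5 in non-targeted cells. Precision is limited by how few arrays there are.

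**Figure D4:**
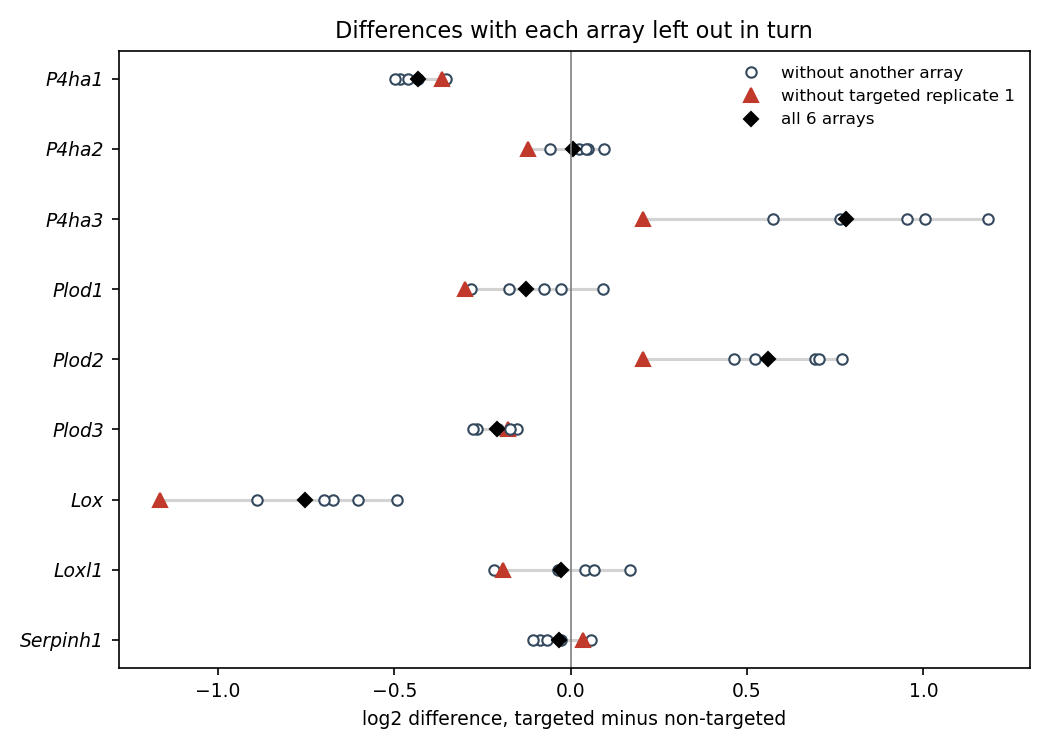
Log2 difference (targeted minus non-targeted, x axis) of the 9 members with all 6 arrays (black diamonds), without targeted replicate 1 (red triangles) and without each other array (open circles). P4ha3 and Plod2 drop to 0.20 and Lox to -1.16 without targeted replicate 1, while P4ha1 stays between -0.50 and -0.35.

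Other genes of collagen processing were mostly lower in targeted cells, by small amounts. Of 26 listed genes 20 were tested, 15 being lower and 5 higher, beside 51.1% lower over all genes, and 0 passed limma's threshold. Their median log2 difference was -0.14, beside -0.01 for all genes tested, and it was -0.048 without non-targeted replicate 2. Of the 20 genes, 3 had groups that did not overlap, beside 9.07% of all genes. P3h2, a prolyl 3-hydroxylase best known for basement membrane collagen, was at 9.26, 9.69 and 9.45 in targeted cells, against 9.78, 10.47 and 9.91 in non-targeted cells. All its targeted arrays lay below the non-targeted ones, with a log2 difference of -0.59 (SE 0.22, limma, unadjusted p = 0.0303, adjusted p = 0.971). Fkbp14, a prolyl isomerase of the endoplasmic reticulum, differed by -0.39 (SE 0.18), with overlapping groups. Tmem38b, a potassium channel of the same membrane whose loss causes brittle bone disease in humans, was the 1 gene of the list with all targeted arrays above, at 8.20, 8.10 and 8.13 in targeted cells, against 7.84, 7.82 and 7.88 in non-targeted cells (log2 difference 0.30, SE 0.13). Tmem38b has 2 probe sets, of which the brighter was used, and with their mean the difference was 0.10. P3h3, a further prolyl 3-hydroxylase family member, was the remaining gene of the 3 with no overlap, at -0.13, and is named here after its values were seen.

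The other genes of this list with the smallest p had overlapping groups. P3h1, which acts on type I collagen, differed by -0.23 (SE 0.23). Loxl3 and Loxl4, further members of the lysyl oxidase family, differed by -0.18 (SE 0.18) and 0.16 (SE 0.15). Adamts14, a protease that removes the amino-terminal propeptide of collagen, differed by -0.22 (SE 0.17), and Bmp1, which removes the carboxy-terminal propeptide, by 0.27 (SE 0.25). Bmp1 was at 0.039 and Loxl3 at -0.051 without targeted replicate 1, P3h1 was at -0.052 without non-targeted replicate 2, and Adamts14 was at -0.031 with array weights. Loxl4 was at 0.080 without non-targeted replicate 1 and at 0.52 with the mean of its 2 probe sets.

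The fibrillar collagen chains, the substrates of these enzymes, were mostly higher in targeted cells, with a median log2 difference of 0.15. The median ran from 0.057 without non-targeted replicate 2 to 0.30 without non-targeted replicate 1. Of 11 tested genes 10 were higher and 1 lower, beside 48.9% higher over all genes, and 0 passed. All chains except Col1a2 and Col3a1 were lowest on non-targeted replicate 2, so they are not separate observations. Apart from Col1a1 and Col1a2, the chains differed little, from -0.05 (Col3a1, SE 0.15) to 0.25 (Col5a2, SE 0.18), all with overlapping groups. Col24a1, the chain at the median, was at 6.93, 7.31 and 7.44 in targeted cells, against 7.36, 6.80 and 7.06 in non-targeted cells (SE 0.21). Col1a1, a chain of type I collagen, was at 10.93, 9.09 and 9.34 in targeted cells, against 8.91, 8.46 and 8.74 in non-targeted cells, and its groups did not overlap. It had a log2 difference of 1.08 (SE 0.45, limma, adjusted p = 0.9998), which was 0.51 without targeted replicate 1. Its partner chain Col1a2 differed by 0.47 (SE 0.32) and Col5a2, a chain of the type V collagen within type I fibrils, by 0.25 (SE 0.18), both with overlapping groups. Without targeted replicate 1 they differed by 0.080 and 0.17. Whether the substrates and the enzymes differed in their response was not tested.

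Several of the members are known targets of the hypoxia-inducible factors, so other such targets are given beside them. Of 18 listed hypoxia response genes 14 were tested, 10 being lower and 4 higher in targeted cells, with a median log2 difference of -0.08 and 0 past the threshold. Over all genes tested 51.1% were lower. Without non-targeted replicate 2 the list's median was 0.00056 and without targeted replicate 1 it was -0.20. The groups did not overlap for 2 of the 14, both with the targeted arrays below. Of all genes tested, 9.07% had groups that did not overlap, 5.76% with the targeted arrays below. Ndrg1, a gene induced by low oxygen and other stress, was at 8.66, 8.35 and 7.75 in targeted cells, against 9.23, 8.86 and 9.12 in non-targeted cells (log2 difference -0.82, SE 0.25, limma, adjusted p = 0.882). Slc2a1, the glucose transporter Glut1, was at 7.90, 7.88 and 8.24 in targeted cells, against 8.31, 8.27 and 8.37 in non-targeted cells (log2 difference -0.31, SE 0.16). Mxi1, an antagonist of Myc, differed by -0.30 (SE 0.20), which was -0.12 without non-targeted replicate 1 and -0.059 with array weights. Vegfa is in the same list and differed by 0.01; it was picked after its value was seen.

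The genes whose pattern over the 6 arrays was closest to each of the 3 members with the smallest p were found by the root mean square distance between log2 values centred on each gene's mean. For P4ha1 they were Phactr1, Acadl and Rasl11a, at distances of 0.031 to 0.060, where the median gene was at 0.32. For Lox they were Gnao1, Adamtsl3 and Mrpl39, at 0.12 to 0.13, with the median gene at 0.62. For Plod2 they were Rdh10, Zkscan8 and Alkbh6, at 0.053 to 0.099, with the median gene at 0.54. The points share the same 6 arrays, and with so few of them close matches among so many genes are easy to find.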

How the data were processed

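Biotinylated cDNA from sorted cells was hybridised to Affymetrix mogene 1.0 ST arrays, per the labels. The deposited values are intensities per probe set on a linear scale, and, per the submitters' processing notes, were summarised by RMA in Affymetrix Expression Console 1.4. The authors' genome build is not given in the sources used here. All tests used log2 of the deposited intensities. Of 35556 probe sets, the platform annotation gave 21789 a single gene and 1621 several, and did not list 12146; symbols of 21698 were updated through RefSeq (GRCm38.p6). For 999 genes with several probe sets the brightest mean was kept. The dimmest 33.3% of genes were left out.

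Groups were compared with limma 3.58.1 (R 4.3.3; lmFit, eBayes) over all 6 arrays without covariates, two-sided, adjusted by Benjamini-Hochberg over 13292 genes. The procedure was run on simulated data, in 10 runs with 200 changed genes each. Genes were drawn independently there, so the runs do not show how the fit handles effects shared by the genes of 1 array. Alternatives changed the filter on dim genes (none, or stricter), the scaling of arrays (quantile, median), the variance model (trend, robust, array weights) or the summary over a gene's probe sets (their mean), took the replicate number as a block, or left out 1 array. No label ties a replicate number to a mouse, so the number was not used as a block in the reported fit. The members and lists were chosen with earlier results of these data known. Named genes are all members, the up to 8 genes of the wider list and up to 3 of the collagen and hypoxia lists with the smallest p, the 3 genes closest in pattern to each of 3 members, and Dmp1. Marker lists are given by their mean, and the osteocyte list by its tested genes. Dcn, Ogn, Fap, Lum, Fn1, S100a4 and Postn were named after their values were seen. Figures were drawn with matplotlib 3.10.9.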

Additional observations from a re-analysis of the deposited data

How the results depend on the processing

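The count of members past the threshold was 0 under all 16 alternatives. The count over all genes, 0 in the reported fit, was 1 with array weights and 1 with the replicate block (the replicate number as a fixed term), the gene being Dmp1 in both (limma, adjusted p = 0.0259 and 0.0153). With the number as a random block it was 0. Both fits with a block left each member's log2 difference as it was and called no member. Deviations of same-numbered arrays from their group means correlated across genes at -0.26, -0.12 and 0.07, so the numbers are not shown to pair the samples. The members' median log2 difference ran from -0.22 (without non-targeted replicate 1) to 0.065 in leave-one-out fits and from -0.13 to -0.01 under the others. P4ha1, P4ha3, Plod2, Plod3 and Lox kept their sign in every alternative that could be run for them, and the lowest adjusted p among the members was 0.228, for Lox with array weights. Of the other members, Serpinh1 and Loxl1 each changed sign in 4 of 16 alternatives, P4ha2 in 3 of 15 and Plod1 in 1 of 16. These make 12 of the 142 alternative values of all 9 members. Under quantile scaling Serpinh1 was at 0.026, Loxl1 at 0.030 and P4ha2 at -0.0066, and with array weights Serpinh1 was at 0.070. In leave-one-out fits Serpinh1 ran from -0.11 to 0.058, Loxl1 from -0.22 to 0.17, P4ha2 from -0.12 to 0.094 and Plod1 from -0.30 to 0.091. Without targeted replicate 1 the hypoxia list had a median of -0.20 (-0.08 with all arrays, 0.00056 without non-targeted replicate 2) and the osteoblast list one of 0.47 (0.67 with all arrays). P4ha2 and P4ha3 are left out by the stricter filter on dim genes and have no value there. With 3 arrays a group, the 95% intervals of 8 of the 9 members include 0. No detection calls or background levels were used.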
